A study of Mus musculus with 12 samples.

Results

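Trp63 and 6 genes of the hemidesmosome, the junction that ties basal epithelial cells to the basement membrane, were followed in mouse prostate. The 7 genes were taken by name, by a rule that uses no measured value, though with earlier results of these data known. All 7 were among the 23284 rows of the deposited table and among the 15096 genes tested. RNA had been isolated from whole prostate of mice aged 4 months on a hybrid 129/SvImJ and C57Bl/6J background, enriched by poly-A pull-down and sequenced. The study set 6 libraries of the -/- genotype at its targeted gene, called null below, against 6 libraries of the +/+ genotype, called wild type. All animals shared the background and age, and the labels name no promoter, Cre or treatment. Nothing in the labels ties a library to an animal of its own. The p-values therefore reflect only the variation among these 12 libraries, part of which may be technical.

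Trp63 encodes p63, a transcription factor of the p53 family that marks basal cells of the prostate and other stratified or pseudostratified epithelia and is needed for their formation. Basal cells sit on the basement membrane through hemidesmosomes. In these, integrin alpha 6 beta 4 (Itga6, Itgb4) and collagen XVII (Col17a1) span the membrane, bind laminin outside (Lama3 and Lamb3 encode 2 of its 3 chains) and are held to keratin filaments inside by dystonin (Dst) and plectin.

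Values are on the log2 scale on which they were deposited, so a difference of 1 is a 2-fold difference. Differences are null minus wild type, each with the standard error (SE) of limma, a linear model with moderated variances fitted to every tested gene. A gene is called where its Benjamini-Hochberg adjusted p, over all 15096 genes, is under 0.05. The sources used here do not say whether values are corrected for transcript length, so levels of different genes are not ranked against each other.

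Within each genotype the libraries fell into 2 sets of 3 that resembled each other closely. Null libraries 1, 2 and 5 formed one set and null libraries 3, 4 and 6 the other, while the wild-type libraries divided into 1 to 3 and 4 to 6. For 3633 genes whose mean was 10 or more, 2 libraries differed by a median of 0.066 within null sets and 0.144 across them, and 0.056 within wild-type sets and 0.109 across them. Null library 5 lay 0.030 from an equal mix of null libraries 1 and 2, which themselves lay 0.112 apart, and null library 6 lay 0.029 from an equal mix of 3 and 4. Members of a set may share a source, so each call of the 7 genes, and the counts of each list, are also given for the 4 set means, 2 against 2. The labels do not describe these sets.

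Of the 7 genes, 5 rose in null prostate, 1 fell and 1 was not called. Of all tested genes 53.1% were called, 28.0% as higher in null and 25.1% as lower, so that a call by itself is common in these data. The balance of higher and lower calls depended on the scaling, with 4224 higher and 3789 lower as deposited and 3367 higher and 4869 lower after upper quartile scaling. None of the 7 genes changed direction under the 3 rescalings tried. Over set means 2 of the 7, Trp63 and Col17a1, were called, both higher, where 14.5% of all tested genes were called 7.58% higher and 6.96% lower. Trp63, Col17a1 and Lamb3 were above every wild-type library in every null library, and the other 4 overlapped. Of all tested genes 32.6% did not overlap, 17.4% with null above and 15.2% with null below. The median difference of the 7 was 0.42, beside 0.012 for all tested genes. In bulk tissue, a larger share of basal cells and more of a transcript per basal cell cannot be told apart.

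**Figure D1:**
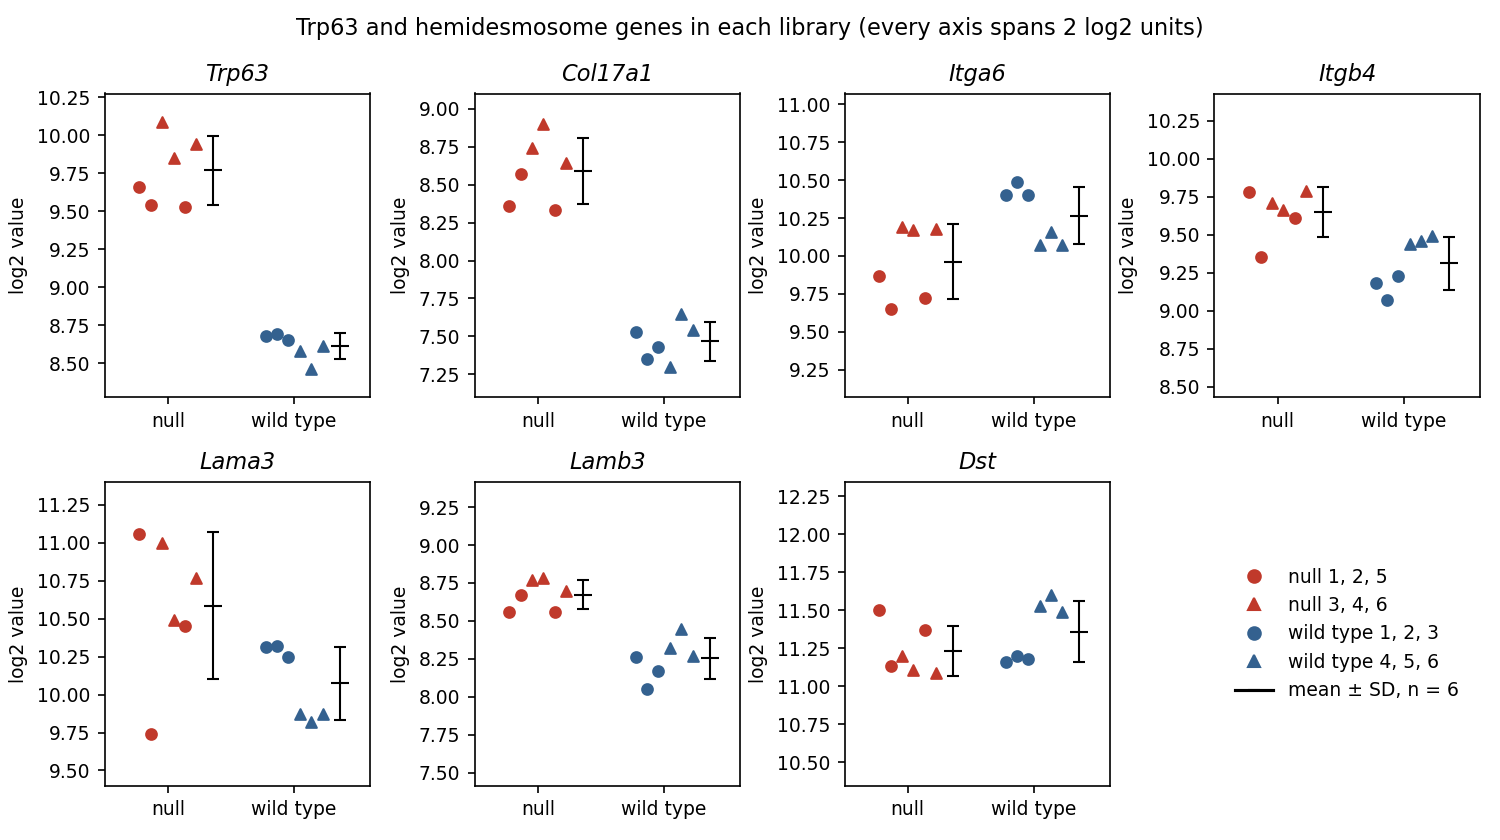
Log2 value of each of the 7 genes in each library, with null libraries on the left and wild-type libraries on the right of each panel. Circles and triangles are the 2 sets of each genotype, and the bar is the mean ± SD of 6 libraries. Trp63, Col17a1 and Lamb3 separate by genotype, while for Itga6 (null sets at 9.74 and 10.18) and Dst (wild-type sets at 11.18 and 11.54) the sets of a genotype differ by more than the genotypes do.

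Trp63 had the largest difference of the 7. Its lowest, median and highest values were 9.53, 9.75 and 10.09 in null libraries and 8.46, 8.63 and 8.69 in wild-type libraries. The lowest null library lay above the highest wild-type library by more than the range of the 6 wild-type libraries. The mean was 9.77 ± 0.23 in null and 8.61 ± 0.08 in wild type (SD, n = 6 each), a difference of 1.16 (SE 0.090) or 2.23-fold. The limma adjusted p was 1e-07 with all 12 libraries and 0.00969 with set means. The gene was also higher in null libraries 3, 4 and 6 (9.85 to 10.09) than in null libraries 1, 2 and 5 (9.53 to 9.66), whereas the wild-type sets were close together. Only 2.99% of all tested genes were called with a rise of at least 1.

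One row of the table stands for all products of Trp63. The GENCODE M21 basic annotation holds 8 coding transcripts of the gene, 4 from each of 2 start regions. The long forms carry an N-terminal transactivation domain that the short forms lack, and the short forms are the ones known from basal cells. The table does not separate them. Of the other p53 family members, Trp53 differed by 0.17 (SE 0.059; limma adjusted p = 0.0274, and 0.327 over set means). Trp73 stood at 4.26 ± 0.40 in null and 3.95 ± 0.15 in wild type (SD, n = 6 each), near 3.51, the 95th percentile of 1123 olfactory receptor genes that serve as a floor. It was not called (limma adjusted p = 0.157).

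Col17a1, which encodes the transmembrane collagen of the hemidesmosome, differed nearly as much as Trp63. It stood at 8.33, 8.60 and 8.90 (lowest, median and highest) in null libraries and at 7.30, 7.48 and 7.65 in wild-type libraries. The genotypes did not overlap, and the gap between them was larger than the range within either. The means were 8.59 ± 0.22 in null and 7.47 ± 0.13 in wild type (SD, n = 6 each). The difference of 1.12 (SE 0.099), or 2.18-fold, had a limma adjusted p of 3.49e-07 with all 12 libraries and 0.0108 with set means. As with Trp63, the values were higher in null libraries 3, 4 and 6 (8.64 to 8.90) than in null libraries 1, 2 and 5 (8.33 to 8.57).

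The region before the start of Col17a1 is shown because the gene rose alongside Trp63. Lamb3 was the other hemidesmosome gene of the 7 whose genotypes did not overlap. Its region and that of Krt5, the basal keratin gene, are shown as well. The regions are from the RefSeq table of build GRCm38.p6, matched by symbol, which held 3 of the 7 genes, while the study's notes name mm9. Capitals mark a match to the p53 family consensus half-site, which reads the same on both strands.
Col17a1, chr19:47692043-47692292, minus strand, 250 bases before the start: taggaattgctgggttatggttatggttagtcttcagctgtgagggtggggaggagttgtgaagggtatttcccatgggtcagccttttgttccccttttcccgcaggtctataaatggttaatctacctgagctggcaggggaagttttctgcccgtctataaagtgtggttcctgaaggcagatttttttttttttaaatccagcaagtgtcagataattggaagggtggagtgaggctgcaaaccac
Col17a1, chr19:47692008-47692037, minus strand, 30 bases around the half-site: acctttgtcaGGACTTGTTTtttgaaggaa
Lamb3, chr1:193301744-193301993, plus strand, 250 bases before the upstream of 2 starts: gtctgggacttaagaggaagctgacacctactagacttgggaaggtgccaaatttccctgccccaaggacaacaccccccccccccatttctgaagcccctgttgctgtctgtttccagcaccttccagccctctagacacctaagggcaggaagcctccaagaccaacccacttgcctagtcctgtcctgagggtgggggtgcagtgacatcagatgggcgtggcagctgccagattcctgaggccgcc
Krt5, chr15:101712906-101713155, minus strand, 250 bases before the start: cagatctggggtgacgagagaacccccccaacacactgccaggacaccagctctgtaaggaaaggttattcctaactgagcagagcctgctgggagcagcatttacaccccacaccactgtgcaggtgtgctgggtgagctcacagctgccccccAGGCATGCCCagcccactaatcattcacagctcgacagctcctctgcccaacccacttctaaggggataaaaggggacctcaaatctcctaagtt
The Col17a1 match began 16 bases into the transcript, and the Krt5 match began 95 bases before the start. A half-site was found in 2745 of 32851 RefSeq windows from 250 bases before to 50 after a start (8.36%), and in none of the 2 windows of Lamb3, the 2 of Dst or the 1 of Krt14. A match is a description of the letters and not evidence of binding.

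The 2 subunits of the hemidesmosome integrin differed in opposite directions. Itgb4, the subunit found with alpha 6 in hemidesmosomes, stood at 9.35, 9.69 and 9.79 (lowest, median and highest) in null libraries and 9.07, 9.33 and 9.49 in wild-type libraries. It was 0.34 higher in null (SE 0.087; limma adjusted p = 0.00448, and 0.138 over set means). The genotypes overlapped through null library 2 at 9.35, and without null libraries 3, 4 and 6 the difference was 0.27 and was not called (limma adjusted p = 0.0657). Leaving out wild-type libraries 1 to 3 gave 0.19, also not called (limma adjusted p = 0.0990). Itga6 stood at 9.65, 10.02 and 10.19 in null libraries and 10.07, 10.28 and 10.49 in wild-type libraries. It was 0.30 lower in null (SE 0.114; limma adjusted p = 0.0384, and 0.322 over set means). The size of the fall depended on the sets. Null libraries 3, 4 and 6 (10.17 to 10.19) and wild-type libraries 4 to 6 (10.07 to 10.16) were alike, while null libraries 1, 2 and 5 stood at 9.65 to 9.87 and wild-type libraries 1 to 3 at 10.40 to 10.49. Without null libraries 1, 2 and 5 the difference was -0.083, and leaving out wild-type libraries 1 to 3 gave -0.14. The call was also lost when any one library of those 2 sets was left out, at -0.28 to -0.24. Without null libraries 3, 4 and 6 the Itga6 difference was larger, at -0.52 (limma adjusted p = 0.0015). Without wild-type libraries 4 to 6 it was -0.47 (limma adjusted p = 0.013).

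Itga6 minus Itgb4 ranged from 0.09 to 0.51 in null and from 0.57 to 1.42 in wild-type libraries, a mean of 0.31 and 0.95. The genotypes did not overlap, though null library 4 at 0.51 and wild-type library 6 at 0.57 were close. Alpha 6 also pairs with beta 1, so the measure does not count integrin dimers. Itga3, the alpha subunit of the other main laminin-binding integrin of epithelia, rose by 0.95 (SE 0.093; limma adjusted p = 1.31e-06, and 0.0147 over set means). Its partner Itgb1 rose by 0.32 (SE 0.042; limma adjusted p = 1.79e-05, and 0.106 over set means). Itga3 minus Itga6 ranged from 1.48 to 2.05 in null and from 0.12 to 0.93 in wild-type libraries, without overlap.

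**Figure D2:**
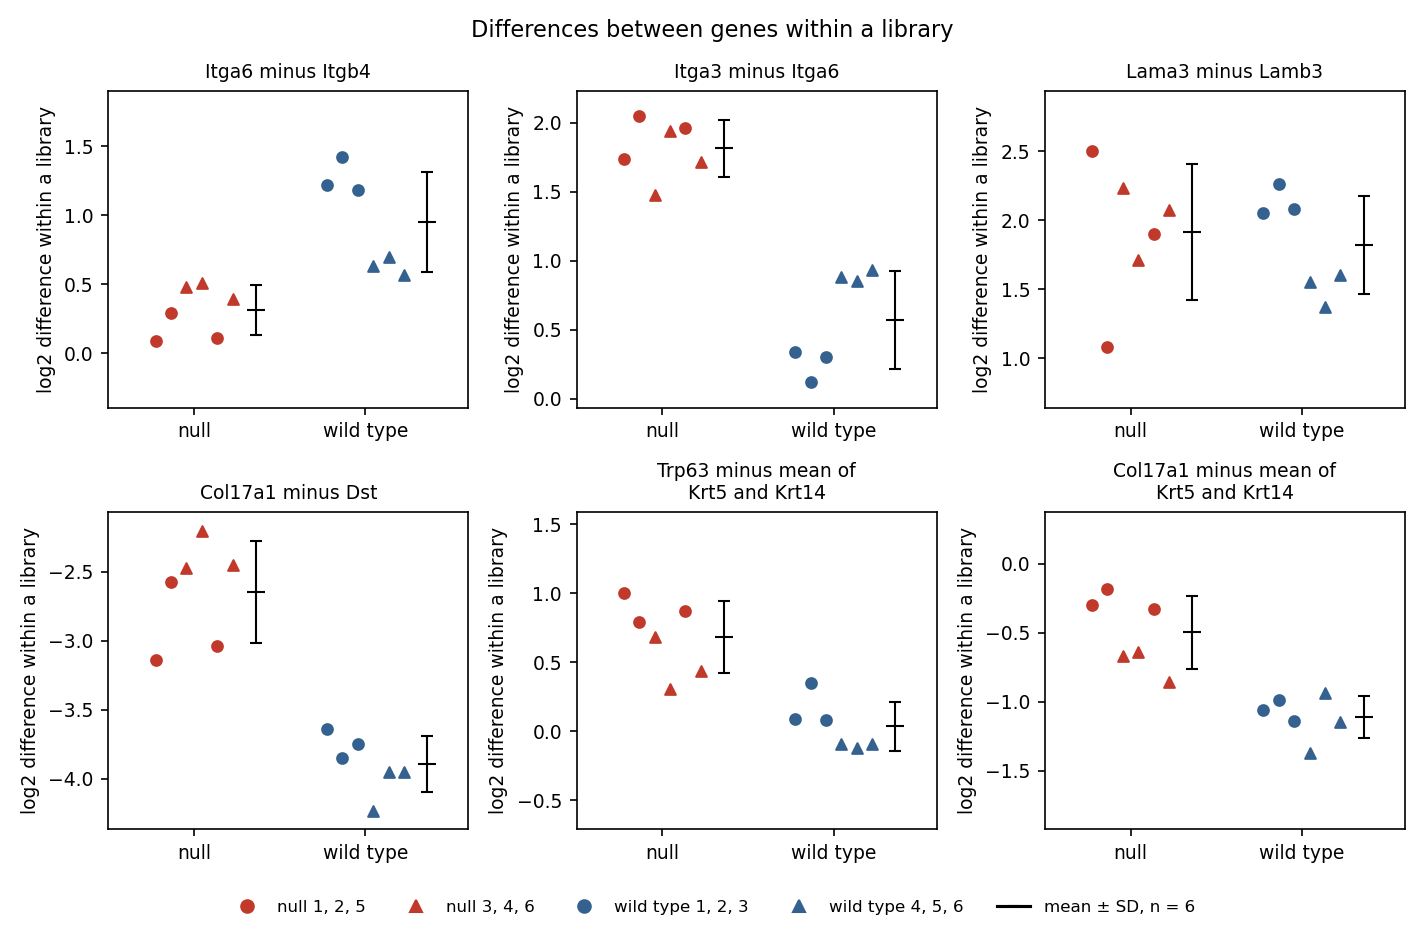
Log2 difference between 2 genes, or between a gene and the mean of Krt5 and Krt14, within each library, null on the left and wild type on the right. Symbols are as in the plot of each gene by library, and every axis spans the same number of log2 units. The integrin pairs and Col17a1 less Dst (-3.14 to -2.20 in null, -4.23 to -3.64 in wild type) separate by genotype, as does Col17a1 less the keratins, while Lama3 less Lamb3 overlaps and Trp63 less the keratins overlaps at null library 4 (0.31) and wild-type library 2 (0.35).

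Lama3 and Lamb3 encode an alpha and a beta chain of the laminin to which hemidesmosomes attach. Lamb3 rose, at 8.56, 8.68 and 8.78 (lowest, median and highest) in null libraries and 8.05, 8.26 and 8.45 in wild-type libraries. The genotypes did not overlap, but the gap of the nearest libraries was narrow. The difference was 0.42 (SE 0.070), or 1.33-fold, with a limma adjusted p of 0.000172 with all 12 libraries and 0.0772 with set means. Lama3 stood at 9.74, 10.63 and 11.06 in null libraries and 9.82, 10.06 and 10.32 in wild-type libraries. Null library 2 was the lowest of all 12, and the other null libraries lay above every wild-type library. The difference of 0.51 (SE 0.202) passed narrowly (limma adjusted p = 0.0492, and 0.129 over set means) and did not pass after quantile normalization (0.44; adjusted p = 0.0979). Lama3 minus Lamb3 within a library overlapped between genotypes, at 1.08 to 2.50 in null and 1.37 to 2.26 in wild type. Without null library 2 the Lama3 difference was 0.68 and was called, as it was without wild-type library 2 (0.56), and without any one of the other 10 libraries it was 0.42 to 0.56 and was not called.

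Dst, which encodes the plakin that links the hemidesmosome to keratin, was not called. It stood at 11.09, 11.17 and 11.50 (lowest, median and highest) in null libraries and 11.16, 11.34 and 11.60 in wild-type libraries. The difference was -0.13 (SE 0.095; limma adjusted p = 0.280), with a 95% interval of -0.33 to 0.077, so that a fall or rise of 2-fold lay outside it. The sets set its sign. Wild-type libraries 4 to 6 stood at 11.49 to 11.60 and wild-type libraries 1 to 3 at 11.16 to 11.20. Without wild-type libraries 1 to 3 Dst was 0.31 lower in null and was called (limma adjusted p = 0.0151), and leaving out wild-type libraries 4 to 6 instead made it 0.054 higher (limma adjusted p = 0.639). Dst also has forms of neurons and muscle, and its 8 coding transcripts in the GENCODE basic annotation start in 4 regions, which the table does not separate. Plec, which encodes plectin, the other plakin of the junction, rose by 0.44 (SE 0.049; limma adjusted p = 3.68e-06, and 0.0382 over set means), with 11.45 to 11.71 in null and 11.05 to 11.17 in wild-type libraries. The tetraspanin gene Cd151, whose product associates with laminin-binding integrins, differed by 0.033 and was not called (limma adjusted p = 0.698).

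Of the 7 partner genes listed beside the hemidesmosome, 4 rose (Itga3, Plec, Itgb1 and Krt14), 1 fell and 2 were not called (Krt5 and Cd151). Their median difference was 0.40, and over set means 2 were called. Among 20 basement membrane genes 13 rose, 6 were not called and 1 fell. Their median difference was 0.47, and over set means 9 were called, all higher. Lama5, the alpha chain most common in adult epithelial basement membranes, stood at 12.44 to 12.58 in null and 11.43 to 11.60 in wild-type libraries and rose by 1.01 (SE 0.045; limma adjusted p = 3.04e-10). Lama2 rose by 0.83, Lamb1 by 0.77 and Lamb2 by 0.67, and the cross-linking proteoglycan gene Agrn by 0.51. All 5 were called over set means too. Of type IV collagen chains, Col4a5 rose by 0.78, and Col4a6, its partner in one collagen network, fell by 0.37 (limma adjusted p = 1.58e-05, and 0.0839 over set means).

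**Figure D3:**
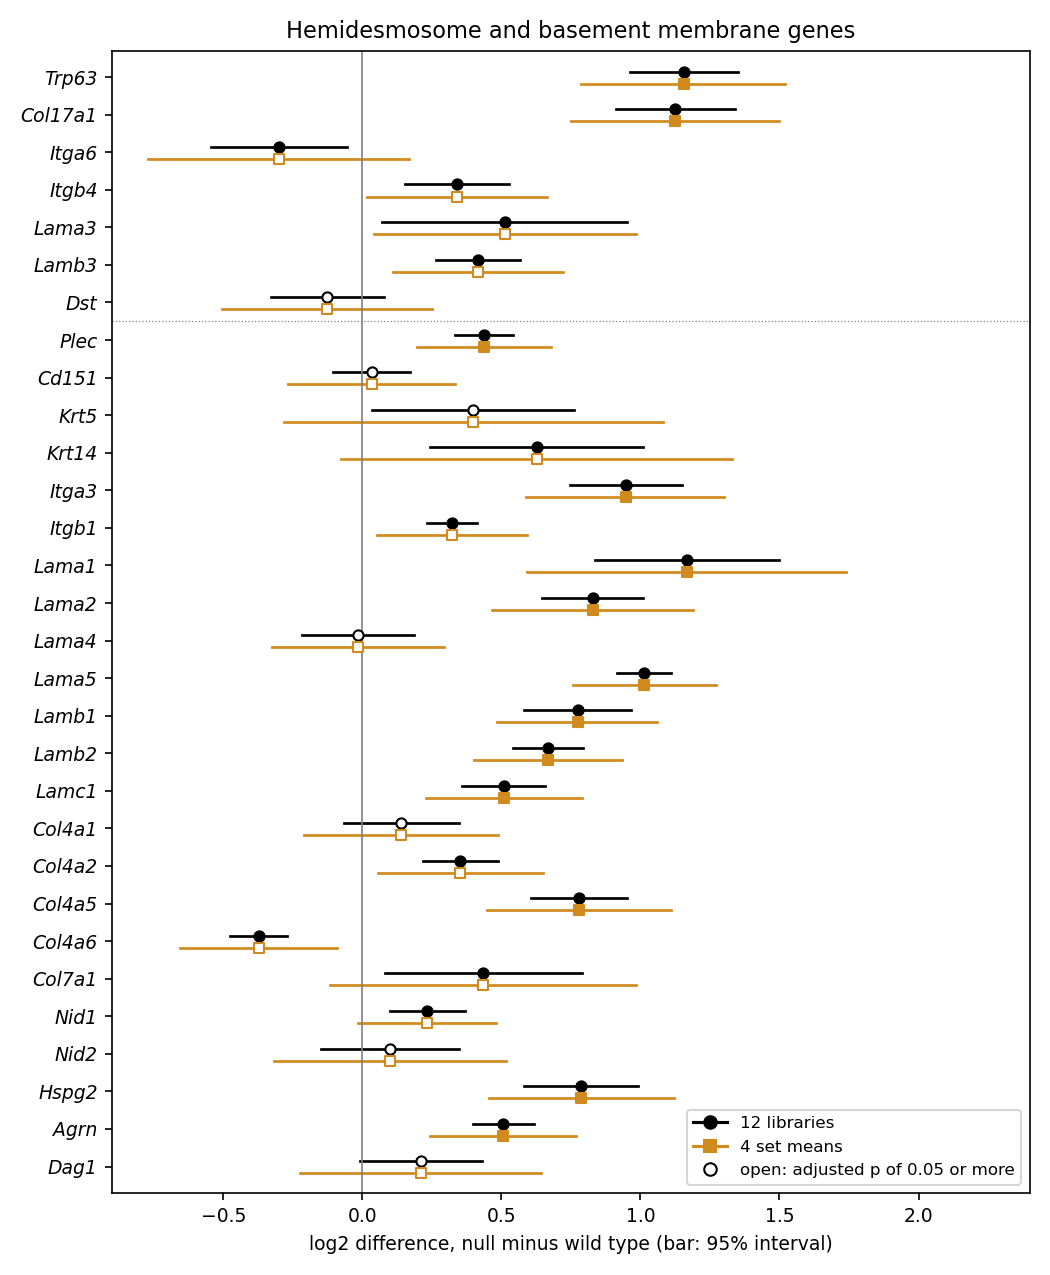
Log2 difference, null minus wild type, for the 7 genes (above the dotted line) and for 6 hemidesmosome partners and 17 basement membrane genes (below it). Black circles are limma over 12 libraries and orange squares over 4 set means, bars are 95% intervals, and open symbols have an adjusted p of 0.05 or more. Trp63 at 1.16, Col17a1 at 1.12 and Lama5 at 1.01 are called in both fits, and of the genes plotted Col4a6 and Itga6 were called below 0.

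The basal keratin gene Krt5 differed between the null sets. It stood at 9.73 to 10.10 in null libraries 1, 2 and 5, at 10.66 to 10.77 in null libraries 3, 4 and 6 and at 9.79 to 10.02 in wild-type libraries. The first null set thus overlapped wild type for Krt5, with null library 1 below and null library 2 above all wild-type libraries, while its Trp63 lay above every wild-type library. Over 12 libraries Krt5 differed by 0.40 and was not called (limma adjusted p = 0.0625), and Krt14 rose by 0.63 (limma adjusted p = 0.00877, and 0.189 over set means). Set against the mean of Krt5 and Krt14 in the same library, Trp63 was at 0.31 to 1.0 in null and -0.12 to 0.35 in wild-type libraries. Col17a1 on that measure was at -0.86 to -0.18 in null and -1.37 to -0.94 in wild-type libraries, without overlap. Itga6 was at 0.63 to 1.21 in null and 1.37 to 2.15 in wild-type libraries, lower in every null library, and Itgb4, Lama3, Lamb3 and Dst overlapped. These within-library measures are descriptions with no test.

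Of 13 basal markers listed, 10 were tested, of which 6 rose, 0 fell and 4 were not called by limma over 12 libraries, with a median of 0.56. At an unadjusted limma p under 0.05, 7 were higher and 0 lower. Every adjusted call passes that threshold too, so at least 28.0% of all tested genes were higher by it and 25.1% lower. Over set means 3 of the basal markers were called, all higher. Dsc3, a desmosomal cadherin gene, rose by 1.14, Krt17 by 1.10 and Krt15 by 0.43. Dsg3, Aqp3 and Bnc1 were not tested, and Dsg3 and Aqp3 averaged under the floor in both genotypes. Bnc1 was lower in null than in wild-type libraries 4 to 6, at 2.72 to 3.56 against 4.52 to 4.71. In wild-type libraries 1 to 3 it stood at 3.01 to 3.33. Of 16 tested genes known as p63 targets in epidermis or other epithelia, 14 rose, 0 fell and 2 were not called by limma over 12 libraries, with a median of 0.53. All 16 differences were above 0, so 0 could be counted as lower at an unadjusted p under 0.05 or by the exact rank-sum test. Over set means 8 were called, all higher. Bnc1, the other gene of this list, was not tested. The p63 target list shares genes with the basal markers, Krt14, Dsc3 and Bnc1 among them. Krt5 and Krt14 are both basal markers and hemidesmosome partners, so the counts of these lists overlap. Cldn1, a tight junction gene, rose by 1.24, the Notch ligand genes Jag1 by 1.06 and Jag2 by 0.82, the kinase gene Ripk4 by 0.48 and the nectin gene Pvrl1 by 0.56. All 5 and Dsc3 were called over set means. The fit shows that these genes were higher and does not bear on what regulates them.

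The 5 genes whose profile over the 12 libraries was most like that of Trp63, among 11797 with a mean of at least 6, were Trp53inp1 (Pearson r = 0.994), Map3k1 (0.994), Ncald (0.993), Dstyk (0.993) and Ern1 (0.992). After each genotype's mean was removed they were Cxcl10 (0.988), Laptm4a (0.943), Sh3rf1 (0.936), Slc17a5 (0.935) and Sp8 (0.934). Libraries of a set resemble each other, so the 12 points are not independent. Between the 7 genes, the r of Trp63 over 12 libraries was 0.96 with Col17a1, 0.88 with Lamb3, 0.75 with Itgb4, 0.71 with Lama3, -0.40 with Itga6 and -0.46 with Dst. Within genotypes Trp63 was most like Itga6 (0.85), the gene that moved the other way between them.

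Other epithelia that hold p63-positive basal cells were represented unequally. The summed level of 9 seminal vesicle genes was 16.81 to 20.38 in null and 8.06 to 11.81 in wild-type libraries, and all 8 tested members rose, 5 of them also over set means. The summed level of 6 urothelium genes was 13.22 to 14.45 in null and 12.54 to 12.82 in wild-type libraries. Of 3 tested members Upk2 rose by 2.81 and Upk1b by 1.44, both also over set means, 1 was not called, and Krt20 averaged under the floor in both genotypes. Upk3a and Upk3b were not tested, and both overlapped between genotypes. For Upk3b, null values spanned 2.39 to 5.27. Wild-type values split by set, with 7.45 or more in libraries 4 to 6 but 3.06 or less in libraries 1 to 3. The mean difference was -1.49 for Upk3b, opposite to Upk2 and Upk1b, and 0.24 for Upk3a. The part of these tissues in the rise of Trp63 and Col17a1 was not tested. Among null libraries, those with the highest Trp63 (3, 4 and 6) had the lower seminal vesicle sums. These were 16.81 to 18.03 against 18.36 to 20.38 in null libraries 1, 2 and 5. Single genes of the list were divided. Svs1, Svs2, Svs5 and Pate4 had the lower mean in null libraries 3, 4 and 6, with Svs2 at 12.1 against 18.69. Svs3a, Svs3b, Svs4, Svs6 and Ceacam10 had the higher mean there, with Svs4 at 16.71 against 15.94. Null libraries 3, 4 and 6 had the higher urothelium sums, 13.72 to 14.45 against 13.22 to 13.54.

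**Figure D4:**
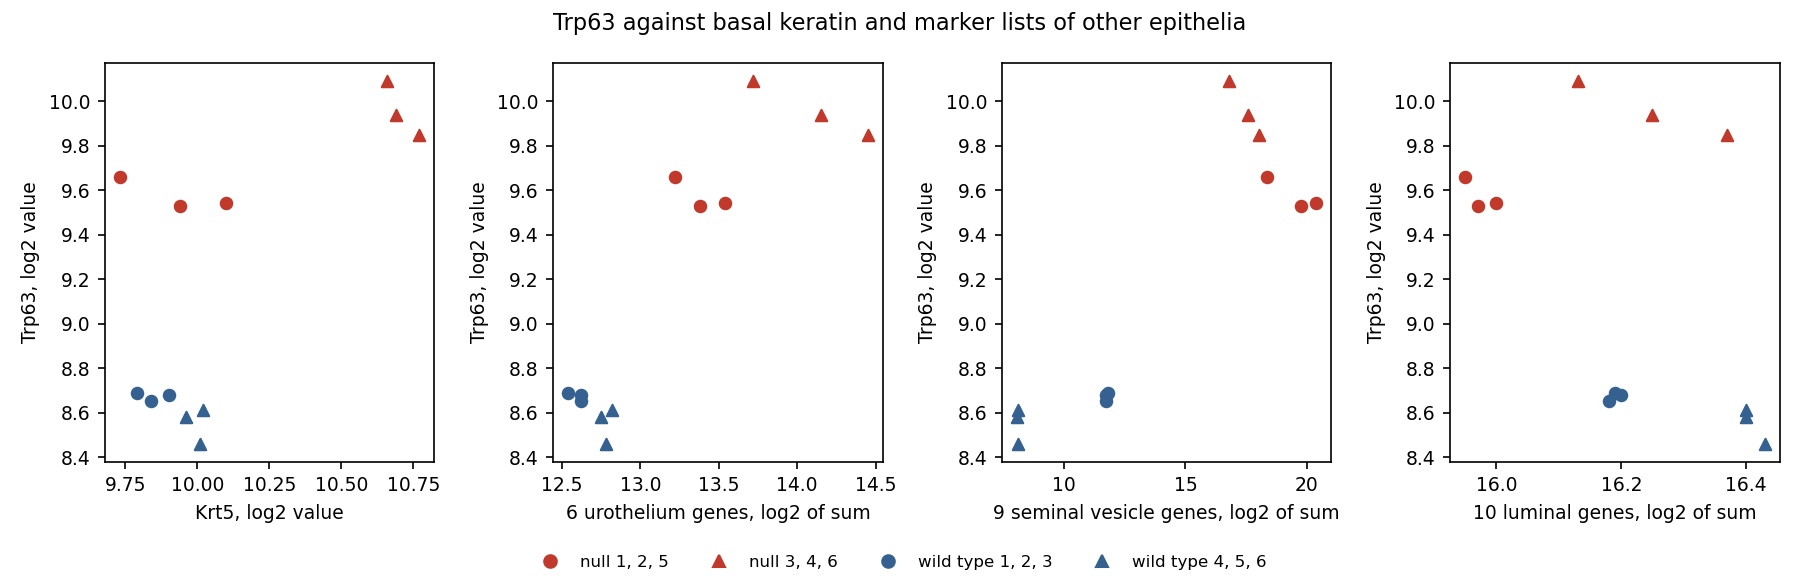
Trp63 (vertical axis, log2 value) against Krt5 and against the summed level of urothelium, seminal vesicle and luminal marker genes (horizontal axes, log2), 1 point per library, null in red and wild type in blue, with the sets as circles and triangles. Null libraries 1, 2 and 5 (Krt5 at 9.73 to 10.10) surround the wild-type Krt5 range of 9.79 to 10.02 but have Trp63 of at least 9.53, and null libraries lie to the right of wild type for the urothelium and seminal vesicle sums.

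Epithelial markers of the prostate itself were present in every library. The summed level of 10 luminal genes was 15.95 to 16.37 in null and 16.18 to 16.43 in wild-type libraries, with 5 members higher and 5 lower (2 and 2 over set means), with Cd24a differing by -0.80 and Tmprss2 by -1.25. Of the lists for other cells that can express integrin alpha 6, laminins or dystonin, smooth muscle had 1 of 8 genes higher and 0 lower by limma over 12 libraries (0 called over set means), and its sum was 15.84 to 16.63 in null and 16.16 to 16.35 in wild type. Fibroblast had 1 of 7 higher and 1 lower, and 0 over set means (13.61 to 14.05 in null, 13.83 to 14.06 in wild type). Endothelium had 1 of 7 higher and 1 lower, and 1 lower over set means (10.44 to 10.90 in null, 10.41 to 10.93 in wild type). Nerve and Schwann cells had 1 of 6 higher, and 0 over set means, with a sum of 8.72 to 10.08 in null and 8.85 to 9.0 in wild type. Skeletal muscle had 1 of 5 tested genes higher and 3 lower, and 2 lower over set means (11.67 to 12.26 in null, 11.47 to 11.61 in wild type), and Myh4 averaged under the floor. Adipocytes had 3 of 7 higher, and 2 over set means (7.58 to 11.25 in null, 7.90 to 9.13 in wild type). Of 7 immune genes 6 were lower, 2 of them over set means, with a sum of 9.87 to 10.32 in null and 10.59 to 11.42 in wild type. Genes of cornified and other squamous epithelium had 1 of 4 higher and 1 lower, and 1 higher over set means (8.32 to 8.64 in null, 8.37 to 8.65 in wild type), and Ivl and Krt13 averaged under the floor in both genotypes.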

How the data were processed

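Poly-A selected RNA of 12 prostate libraries, 6 null and 6 wild type, was sequenced with Illumina TruSeq kits on a HiSeq 2000, per the labels' protocols. Cufflinks 2.0.2, DESeq, TopHat2 2.0.4, CASAVA 1.8.2 and build mm9 appear, without roles, in what the submitters' processing notes list. The values were deposited by the authors on a log2 scale, normalised between libraries by a transformation not given in the sources used here. They hold no counts, so the depth is unknown and no count test was used.

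Values were tested as deposited, with no pseudocount, in limma 3.58.1 (R 4.3.3), using robust moderation and a mean-variance trend. A gene was tested where 6 or more libraries reached 4. Genotype was the only term, and p-values were adjusted by Benjamini-Hochberg over 15096 genes. Alternatives were 3 rescalings, limma without trend and robust moderation, an exact rank-sum test, other filters, set means and leaving out libraries or sets. The fit was tested on simulated data. Sets were the split of each genotype's 6 libraries into triplets with the smallest mean median difference within triplets, out of 10 splits. Summed levels are the log2 of the summed linear values.

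The 7 genes, the lists, the sets and the alternatives were chosen with earlier results of these data known. Named are the 7 genes, up to 6 called genes and all that fell per hemidesmosome, basement membrane and p63 target list, up to 3 per marker list, the other p53 family genes and the 5 genes most like Trp63 by each measure. The not-called partners Krt5 and Cd151, marker genes under the floor, the seminal vesicle genes, and the untested Bnc1, Upk3a and Upk3b were named after their values were seen. The targeted gene's level and those of some listed genes are not reported here.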

Additional observations from a re-analysis of the deposited data

Results flagged for a closer look

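In 130 groups of 6 libraries (the 7 genes, their pathway lists and the within-library differences, in each genotype), 3 had 1 library farther from the other 5 than the 95% critical value of Dixon's test for 6 values allows, where chance alone flags about 1 in 20 groups. Dsc3 stood at 5.64 in null library 3 and at 5.25 to 5.38 in the other null libraries. Cd151 stood at 11.27 in wild-type library 2, below the other wild-type libraries. The mean of Krt5 and Krt14 stood at 8.34 in wild-type library 2 and at 8.57 to 8.69 in the other wild-type libraries, which raises the values of Trp63 and the other genes set against those keratins in that library. None of the 7 genes themselves was flagged in either genotype.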

How the results depend on the processing

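Trp63 and Col17a1 were called higher in null in all 25 alternatives, at 0.97 to 1.35 and 0.95 to 1.29, Lamb3 in 24 (0.32 to 0.51), Itgb4 in 22 (0.19 to 0.49), Lama3 in 6 (0.29 to 0.73), Itga6 lower in 12 (-0.52 to -0.083) and Dst in 1 (-0.31 to 0.054). No scaling moved the median of all genes by over 0.1. Over set means, with fewer independent samples, 1144 genes were called higher and 1051 lower, and among them 2 and 0 of the 7 genes, 2 and 0 hemidesmosome partners, 0 basement membrane genes lower and 8 p63 targets higher. Not called were Lamb3 (0.42), Itgb4 (0.34), Lama3 (0.51) and Itga6 (-0.30). Lama3 also lost its call under quantile (0.44), upper quartile (0.44) and median scaling (0.51), the exact rank-sum test (0.51) and no filter (0.51). Itga6 lost its call without trend and robust moderation, under the exact rank-sum test and without the filter (-0.30 in each), leaving 0 of the 7 lower. Left out as sets, null libraries 1, 2 and 5 gave Itga6 at -0.083 (0 of the 7 lower), and null libraries 3, 4 and 6 gave Itgb4 at 0.27 and Lama3 at 0.35 (3 of the 7 higher), neither called. Without wild-type libraries 1 to 3, Itga6 (-0.14) and Itgb4 (0.19) were not called and Dst was (-0.31). Without wild-type libraries 4 to 6, Lama3 (0.29) was not called, 0 partners were lower and Dst turned to 0.054. Without null libraries 5 and 6, an alternative chosen after seeing the data, Itga6 (-0.30, 0 of the 7 lower) and Lama3 (0.50) were not called. The causes were not tested. Leaving out 1 library at a time gave 4022 to 4185 genes higher and 3518 to 3754 lower, 4 to 5 and 0 to 1 of the 7 genes, 4 to 5 and 1 to 1 partners, 12 to 13 and 1 to 1 basement membrane genes and 14 to 14 p63 targets higher. Differences then were 1.09 to 1.20 for Trp63, 1.06 to 1.18 for Col17a1, -0.35 to -0.24 for Itga6, 0.29 to 0.40 for Itgb4, 0.42 to 0.68 for Lama3, 0.38 to 0.46 for Lamb3 and -0.18 to -0.078 for Dst. No paired analysis was possible because the labels give no replicate numbers and the numbers used here follow accession order. Depth is unknown, so counting error of low genes such as Dsc3 and Trp73 cannot be given.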
